A study of Mus musculus with 8 samples.

Results

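The alpha globin gene Hba-a1 was read by 1 probe of a 33012-probe mouse expression array, chosen by its probe number and listed in the files under the RefSeq transcript NM_008218.1. It was the only probe matched to any globin gene. The array was hybridised with RNA from 8 pools of metanephric kidney anlagen, the rudiments of the permanent kidney, taken from E10.25 mouse embryos with 8 to 13 tail somites. There were 4 pools from mutants of Wt1, labelled as knockouts, and 4 control pools. Wt1 is a transcription factor gene without which the kidney does not form. All 8 pools came from a mouse line with the Wt1 mutant allele, on a mixed C57Bl6/DBA background. The control pools are titled wild type but their genotype entry reads heterozygote, so they are called controls. Each pool combined 16 kidneys of 1 genotype, so variation between single embryos is averaged within a pool. No label says whether pools came from separate litters, so the spread behind the p-values may be technical in part.

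Haemoglobin, the oxygen carrier of red blood cells, joins pairs of alpha-like and beta-like globin chains, each holding a haem group. In the mouse, alpha globin is made from the closely similar genes Hba-a1 and Hba-a2, which lie near the embryonic alpha-like gene Hba-x. At midgestation, primitive red cells from the yolk sac circulate through the embryo and are rich in globin RNA, whereas kidney mesenchyme is not an erythroid tissue. In these pools of whole tissue, fewer red cells and less globin RNA per cell cannot be told apart.

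The probe's own sequence was not used here, and the transcripts of both adult copies begin alike, so the measured value may stand for Hba-a1, Hba-a2 or both. In the RefSeq sequences of build GRCm38.p6, 297 of 297 aligned bases around the start sites of Hba-a1 and Hba-a2 were identical, a stretch that includes the beginning of the transcripts. The window held 250 bases before the start and 50 after it, and the rest of the transcripts was not compared. Over the same window, aligned without gaps, Hba-x matched Hba-a1 at 85 of 290 bases. The 200 bases before the start of Hba-a1 (chr11:32283472-32283671, plus strand) and of Hba-x (chr11:32276400-32276599, plus strand) are shown because they set the shared adult promoter beside the embryonic one.
Hba-a1: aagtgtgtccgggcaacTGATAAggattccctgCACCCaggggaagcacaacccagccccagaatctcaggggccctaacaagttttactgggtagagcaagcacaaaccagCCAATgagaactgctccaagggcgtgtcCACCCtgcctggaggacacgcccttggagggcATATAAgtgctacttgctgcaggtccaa
Hba-x: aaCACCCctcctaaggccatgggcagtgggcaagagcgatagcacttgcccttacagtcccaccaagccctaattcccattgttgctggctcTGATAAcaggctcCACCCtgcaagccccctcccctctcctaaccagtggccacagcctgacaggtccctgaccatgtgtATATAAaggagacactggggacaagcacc
The capitals mark matches, searched on both strands, to 4 motifs. The TATA box was searched as ATATAA. The CCAAT box was searched by those letters. The CACCC box was likewise searched by its own letters. The GATA motif was searched as TGATAA. No match overlapped another in these sequences. In Hba-a1 the TATA box began 28 bases and the CCAAT box 88 bases before the start. CACCC boxes began at 60 and 167 bases and the GATA motif at 183 bases. Hba-x held the GATA motif, CACCC boxes and the TATA box, the last 29 bases before its start. The CCAAT letters were not in this window. Of 32851 RefSeq promoter windows of that length, 7.30% held the TATA letters, 29.3% the CCAAT letters, 45.5% the CACCC letters and 6.18% the GATA letters. These matches are letters in a window and were not tested as binding sites.

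Over the tested probes, the arrays of control pools 1 and 2 differed from the remaining 6. On the first principal component, computed without Hba-a1 and holding 42.4% of the variance, they lay at 42.14 and 67.46, and the mutant pools and control pools 3 and 4 lay between -21.49 and -13.07. Median signals ran from 812.8 to 1317 in mutant and from 681.6 to 2118 in control arrays, and 17349 to 19633 probes per array were detected. Wt1 was not matched to a probe, and neither was any of 20 nephric mesenchyme genes listed as markers, so genotype and tissue labels were not checked by their own genes.

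Hba-a1 was bright and clearly detected on every array. Its deposited signal, a linear intensity, was 840773, 1073010, 1003089 and 1099241 in mutant pools 1 to 4, against 481988, 214179, 1067218 and 898373 in control pools 1 to 4. On this scale the genotypes overlapped, since control pools 3 and 4 lay within the range of the mutant pools, and control pools 1 and 2 were below all others. The signal-to-noise score was 82.63, 68.26, 90.02 and 78.61 in mutant pools 1 to 4 and 65.09, 94.48, 88.13 and 93.34 in control pools 1 to 4. These scores overlapped between genotypes and were far above the detection minimum of 3. The low deposited signals came from the brightest and the dimmest array: control pool 1 had the highest array median, 2118, and control pool 2 the lowest, 681.6.

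On 7 of the 8 arrays the probe was dimmer than every probe carrying the bright-end flag, by the most in control pools 1 and 2. Flag value 4, whose meaning is not given in the sources used here, was carried by 14 to 209 probes per array, always including the brightest probe. The Hba-a1 probe carried flag 0 on all 8 arrays. Its signal was 21.4%, 32.7%, 36.2% and 30.5% of the highest signal on the arrays of mutant pools 1 to 4, and 13.8%, 6.42%, 31.9% and 26.1% on those of control pools 1 to 4. On 7 arrays the lowest signal with flag 4 (1191706 to 1434702) was above that of Hba-a1. In mutant pool 4 only 1 of the 142 flagged probes, at 480368, was dimmer than Hba-a1. Among the probes brighter than Hba-a1, 23.4%, 33.6%, 17.9% and 48.1% carried flag 4 in mutant pools 1 to 4, and 18.9%, 2.35%, 54.1% and 35.8% in control pools 1 to 4. Whether signals of this size were compressed was not tested.

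**Figure D1:**
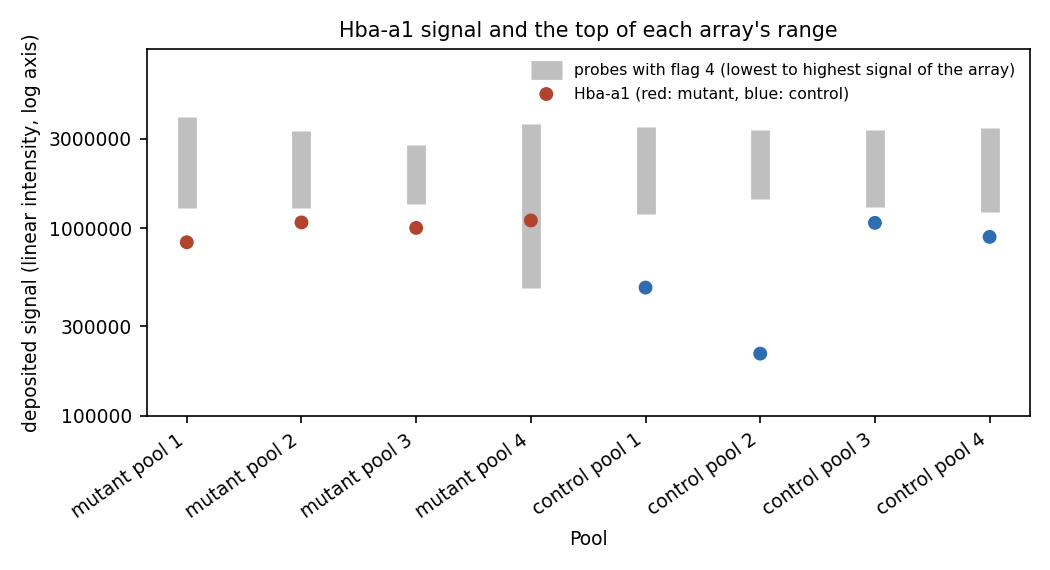
Deposited Hba-a1 signal (linear intensity, log axis) in each pool, red for Wt1 mutant and blue for control, with a grey bar from the lowest to the highest signal of probes carrying flag 4 on that array. Hba-a1 lies below the grey bar on 7 arrays and inside it in mutant pool 4, where a single flagged probe at 480368 extends the bar downward.

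The comparison asks whether the globin signal differed between genotypes. Once arrays were brought to a common scale, Hba-a1 was higher in every mutant pool than in every control pool. Relative to the median signal of its array it was 1030, 976, 1090 and 835 times as bright in mutant pools 1 to 4, against 228, 314, 694 and 779 times in control pools 1 to 4. The rank of the probe on its array, where 1 is the brightest, was 275, 236, 213 and 294 in mutant pools 1 to 4 and 837, 597, 387 and 325 in control pools 1 to 4. Neither measure overlapped between genotypes, and both placed control pools 3 and 4 next to the mutant pools and control pools 1 and 2 well below. After quantile normalization 10.6% of tested probes had no overlap in either direction, and that share was not computed for these measures. All such scales rest on the same arrays and are not separate support. Rank depends only on the order of signals within an array. It is given as a position on the array and not as a level of RNA relative to other genes.

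On the log2 scale after quantile normalization over all probes, Hba-a1 measured 19.84, 20.00, 20.10 and 19.77 in mutant pools 1 to 4, against 18.08, 18.66, 19.40 and 19.64 in control pools 1 to 4. The lowest mutant pool exceeded the highest control pool by 0.13, a 1.09-fold step. The mutant pools spanned 0.337, or 1.26-fold, and the control pools 1.55, or 2.94-fold. In order from high to low the pools ran mutant 3, 2, 1 and 4, then control 4, 3, 2 and 1. The step from mutant pool 4 to control pool 4 was smaller than the SD among mutant pools, so these neighbours do not differ beyond their spread.

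**Figure D2:**
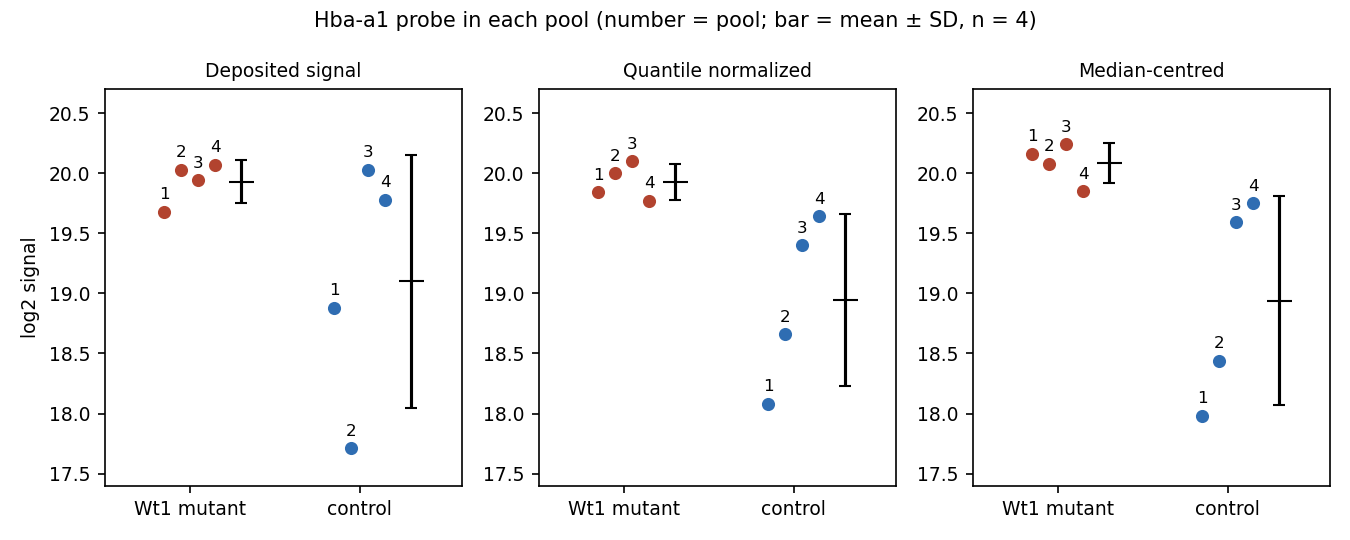
Log2 signal of the Hba-a1 probe in each pool (numbered points), with mutant pools left and control pools right in each panel and a bar for the mean ± SD of 4 pools. The genotypes overlap in the deposited signal, while after quantile normalization or median-centring all 4 mutant pools lie above all 4 control pools, whose pools 1 and 2 are the lowest.

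Hba-a1 averaged 19.93 ± 0.15 in mutant pools and 18.95 ± 0.71 in control pools (log2 signal, SD, n = 4 each). The difference of 0.98 (SE 0.32, 95% interval 0.26 to 1.70), a 1.97-fold higher signal in mutants, did not pass the threshold of 0.05 over all 17594 tested probes (limma's adjusted p = 0.279, unadjusted 0.0133). Over the same probes 0.460% passed in either direction and 0.0682% were called higher in mutants. An unadjusted p under 0.05 was reached by 13.5% of tested probes, and by 4.65% with a higher mutant mean. For the single gene, an exact two-sided permutation test over the 8 pools gave p = 0.0286, the smallest value that 70 relabellings allow. Any probe without overlap between genotypes gives that value, and 10.6% of tested probes had no overlap. The gene was put forward with earlier results of these data known, so this p is not independent evidence.

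The size of the difference depended on the control pools. Among controls the SD of Hba-a1, 0.71, was above that of 91.5% of tested probes (median 0.287), whereas among mutants its SD, 0.153, was above that of 55.7% (median 0.136). Control pools 3 and 4 exceeded control pools 1 and 2 by 1.15, or 2.22-fold, which is more than the difference between genotypes. Against control pools 3 and 4 alone the mutants were higher by 0.41 (SE 0.13, 95% interval 0.09 to 0.72), a 1.33-fold difference that did not pass (limma's adjusted p = 0.194). Against control pools 1 and 2 alone they were higher by 1.56 (SE 0.19), 2.94-fold, which passed (limma's adjusted p = 0.00308). In that last comparison 26.0% of tested probes passed, so a call there says little about Hba-a1.

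The array names carry 2 dates, and both genotypes are present at each. Within the larger date, with 3 pools of each genotype, the difference was 0.92 (SE 0.40, limma's adjusted p = 0.499). The exact permutation test there gave p = 0.1, the smallest that 3 against 3 pools allow. Within the smaller date, mutant pool 1 exceeded control pool 2 by 1.18, or 2.26-fold, with 1 pool of each genotype and no test. With the date as a block the difference was 0.98 (SE 0.33, limma's adjusted p = 0.300).

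What sets control pools 1 and 2 apart from the other arrays was not tested. The 7 alternatives that changed the scaling, the values or the background correction gave differences of 0.832 to 1.24, with mutants higher. The other 18 kept the quantile normalized values, in which the genotypes do not overlap, so their direction was fixed and they bear only on the size, which ran from 0.407 to 1.56. Without any scaling between arrays the difference was 0.83 (95% interval -0.09 to 1.76), while the median difference over all tested probes was then -0.43, so that Hba-a1 lay 1.26 above that median. With quantile normalization the median difference was -0.06. With array weights, which gave control pools 1 and 2 weights of 0.305 and 0.161 and the other 6 arrays 1.33 to 2.20, the difference was 0.57 (SE 0.21, limma's adjusted p = 0.223).

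**Figure D3:**
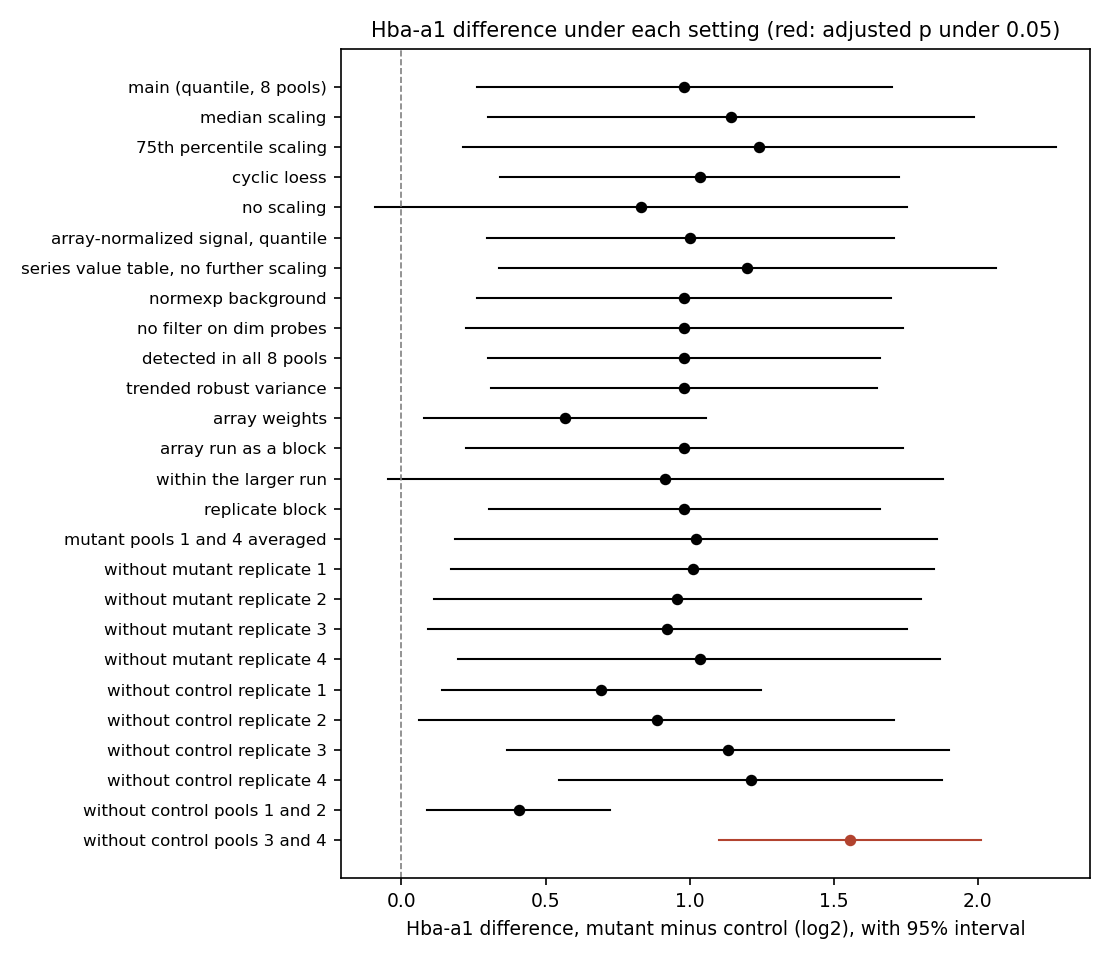
Difference in Hba-a1 log2 signal, mutant minus control, with its 95% interval, under each processing choice and each choice of pools. The points lie between 0.407 without control pools 1 and 2 and 1.56 without control pools 3 and 4. Only the point without control pools 3 and 4 (red) has an adjusted p under 0.05.

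A reading of Hba-a1 as a measure of blood could hardly be checked against other red cell genes. Symbols were matched to only 317 of the 33012 probes, so a listed gene without a match may still have had a probe. Of 76 genes in lists of globins, haem synthesis, red cell membrane and enzymes, and erythroid regulators, 3 were matched to a probe: Hba-a1, Stat5a and Stat5b. The lists of 12 platelet, 23 leukocyte and 26 endothelial genes had 0 matched members, so other blood and vessel cells were not analysed here.

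Stat5b, which encodes a transcription factor that acts downstream of the erythropoietin receptor and of many other cytokine receptors, did not follow Hba-a1. Its log2 signal was 12.54, 12.41, 12.21 and 12.49 in mutant pools 1 to 4 and 12.47, 12.51, 12.40 and 12.23 in control pools 1 to 4. The genotypes overlapped throughout, and the difference was 0.01 (SE 0.12, 95% interval -0.26 to 0.28, limma's adjusted p = 0.980). Its paralogue Stat5a was detected in 2 mutant and 2 control pools and was not tested. Both genes are active in many cell types, so neither is a specific marker of red cells.

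The probes whose pattern was most like that of Hba-a1 were sought by Pearson's r of log2 signal over the 8 pools, as a description. Among 17593 other tested probes, 401 (2.28%) had r of at least 0.9 and 733 (4.17%) had r of at most -0.9. These correlations share the contrast between control pools 1 and 2 and the rest: over the other 6 pools 431 probes reached 0.9, and 25 did so both times, which is 6.23% of the 401 and 5.80% of the 431.

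The closest 2 probes carry identifiers that the tables used here do not pair with a gene. Whether either reads one of the listed red cell genes was therefore not checked. The probe for mCG12963.1 had r = 0.994 over 8 pools and 0.943 over 6, and ordered the 8 pools as Hba-a1 did (Spearman's rho 1.0). It measured 10.85, 10.98, 11.08 and 10.57 in mutant pools 1 to 4, against 8.75, 9.31, 10.43 and 10.49 in control pools 1 to 4, and was detected in 4 mutant and 3 control pools. The probe for NM_133245.1 had r = 0.991 over 8 pools and 0.991 over 6. It measured 14.24, 14.42, 14.57 and 14.24 in mutant pools 1 to 4, against 11.79, 12.28, 13.78 and 14.10 in control pools 1 to 4. In both probes every mutant pool was above every control pool, and control pool 1 was the lowest. Both were picked for their r with Hba-a1 over these same pools, so this order follows largely from the choice. Of all tested probes, 10.6% had no overlap between genotypes in either direction.

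Only 177 of the 17594 tested probes had a symbol, so the genes named here need not be the closest on the array. Among probes with a symbol, the 8 most like Hba-a1 were led by Sult5a1, which encodes a sulfotransferase (r = 0.954 over 8 pools, 0.802 over 6), and Pcdha3, a clustered protocadherin of cell contacts (0.938 and 0.905). They were followed by the prefoldin subunit Pfdn5, part of a chaperone for newly made actin and tubulin (0.930 and 0.860), and the copper chaperone Atox1 (0.922 and 0.0317). The others were the galectin Lgals1 (0.915 and 0.682), the chemokine Ccl21a (0.905 and 0.797), the mitochondrial dehydrogenase Hsd17b10 (0.893 and 0.646) and the histone H2bc13 (0.886 and 0.270). For Atox1 and H2bc13 the likeness thus rested on control pools 1 and 2. Atox1 measured 17.62, 17.50, 17.56 and 17.43 in mutant pools 1 to 4, against 16.05, 16.00, 17.55 and 17.53 in control pools 1 to 4, so that control pools 3 and 4 lay among the mutants. Ccl21a has a near-identical copy, Ccl21b, so its value is uncertain. No probe sequences were used here, so whether the other named probes also read related genes was not checked.

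Among tested probes with a symbol, the most opposite patterns were those of Psme3, a proteasome activator subunit (r = -0.972 over 8 pools, -0.916 over 6), and Llgl1, a cell polarity gene (-0.965 and -0.689). Next came Pdxp, a pyridoxal phosphatase (-0.957 and -0.874), and Senp3, a SUMO protease (-0.939 and -0.0766). Psme3 measured 16.59, 16.54, 16.62 and 16.72 in mutant pools 1 to 4, against 17.43, 17.21, 17.00 and 16.86 in control pools 1 to 4, with no overlap and with control pools 1 and 2 the highest. Senp3 measured 16.34, 16.36, 16.41 and 16.45 in mutant pools 1 to 4, against 17.20, 16.96, 16.45 and 16.24 in control pools 1 to 4. Here control pools 3 and 4 spanned the mutant range, and the opposite pattern came from control pools 1 and 2.

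**Figure D4:**
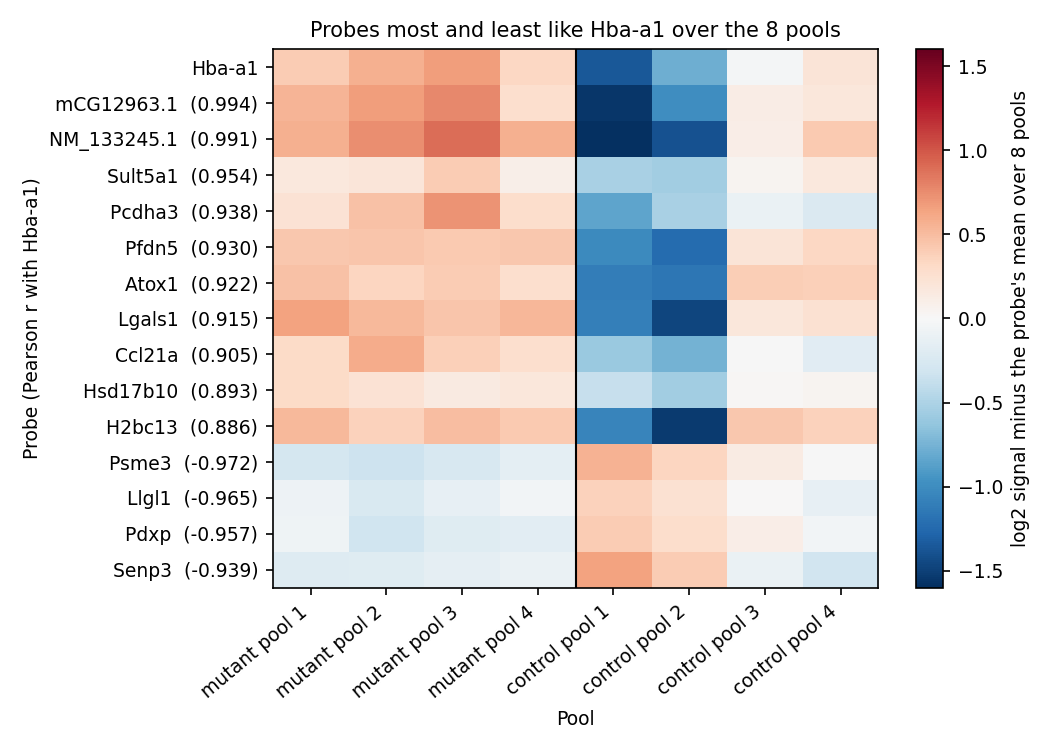
Log2 signal minus each probe's own mean over the 8 pools (colour), for Hba-a1, the 2 unnamed probes and 8 named genes most like it, and the 4 named genes most opposite to it, with Pearson's r in brackets. Mutant pools are left of the line and control pools right of it, and control pools 1 and 2 lie on the opposite side of the mean from the mutant pools in all 15 probes shown. The probes beside Hba-a1 were chosen by their r with it over these same pools, so this shared pattern follows largely from the choice.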

How the data were processed

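Per the labels' protocols, amplified cRNA of each pool carried digoxigenin and was read on single-colour Mouse Genome Survey arrays (Applied Biosystems). The deposited signal and its array-normalized form are intensities on a linear scale, per the file headers and their values. Whether background had been removed is not stated. Probes were filtered on the deposited signal-to-noise score and on a whole-number flag.

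Signals of all 33012 probes were taken to log2 and quantile normalized, then fitted in R 4.3.3 with limma 3.58.1 (mutant minus control, empirical Bayes, two-sided, Benjamini-Hochberg, threshold 0.05). Testing required a score of 3 or more with a flag below 5000 in at least 3 of the 4 pools of either genotype, which left 17594 probes. Symbols came from RefSeq accessions or synonyms (317 probes, 311 genes). The fit was tested on simulated data. The number of arrays limits the precision. Exact permutation tests used SciPy 1.17.1. Named were the matched genes of fixed marker lists, the 8 tested matched genes with the highest and the 4 with the lowest r with Hba-a1, and 2 unmatched identifiers. Members, lists and rule were chosen with earlier results of these data known. Alternatives changed scaling, values, background, filter, variance model, weights, date, pairing and pools.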

Additional observations from a re-analysis of the deposited data

How the results depend on the processing

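Of 25 alternatives for the Hba-a1 difference, 24 left it short of the threshold (0.407 to 1.24, limma's adjusted p 0.142 to 0.681), and the fit without control pools 3 and 4 passed (1.56, limma's adjusted p = 0.00308). Leaving out 1 pool gave 0.694, without control pool 1, to 1.21, without control pool 4. The exact permutation p of 0.0286 stayed under the threshold in 7 alternatives, among them rank on the array, which was added after the data had been seen. It was 0.2 without scaling, where the genotypes overlap. With fewer pools it could not pass: the exact permutation p was 0.0571 with any 1 pool left out or mutant pools 1 and 4 averaged, whose array names share a number, 0.1 within the larger date and 0.133 without control pools 1 and 2 or without 3 and 4, each the smallest possible. The count of 401 probes with r of at least 0.9 was 173 with Spearman's rho and 630 with median-centring, and the 733 with r of at most -0.9 were 451 and 1422, and 426 without control pools 1 and 2. The cause was not tested. With the replicate number as a block the difference was 0.981 (limma's adjusted p = 0.333). Deviations of same-numbered pools correlated at -0.0867, 0.178, 0.00365 and 0.0778, so no pairing by number was seen. With 4 pools per genotype this check cannot exclude a pairing.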
